A study of Mus musculus with 24 samples.

Results

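The genes described here are 2 chemokines, Ccl11 and Cxcl12, the signalling receptor Cxcr4, and 2 atypical receptors that take up chemokines, Ackr3 and Ackr4, in sorted stromal cells of the embryonic mouse kidney. They were chosen by name, with earlier results of these data known. All 5 are among the 13803 genes for which expression values were deposited. RNA was sequenced from 24 libraries in 8 groups of 3: beta-catSD stroma (SD, deficient in beta-catenin) and its wild-type counterpart on the C57BL/6 background, and beta-catSO stroma (SO, with stabilised beta-catenin) and its wild-type counterpart on the CD1 background, each at E12.5 and E13.5 (embryonic days). By the series description every genotype, wild-type included, carried FoxD1Cre-eGFP, whose Foxd1 promoter drives Cre and green fluorescent protein in kidney stromal progenitors, and stromal cells were taken by fluorescence-activated sorting. No source used here names the beta-catenin alleles. The description speaks of 3 kidneys for each genotype, the labels do not say whether the libraries of a group came from separate embryos or litters, and the protocol mentions a second sort without saying which libraries had it, so a p-value covers only the spread among the libraries at hand.

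Chemokines are small secreted proteins that guide cell movement through receptors coupled to G proteins. Cxcl12 acts through Cxcr4, while Ackr3 binds the same ligand without G protein signalling and carries it into the cell for breakdown, which lowers and shapes the Cxcl12 available to Cxcr4. Cxcl12 is a known product of embryonic stroma, and Cxcr4 is known on endothelial cells, blood cells and some epithelial progenitors. Ccl11, also called eotaxin, attracts eosinophils through Ccr3, and Ackr4 removes a different set of ligands, Ccl19, Ccl21 and Ccl25. Beta-catenin, the protein altered in both mutants, carries the canonical Wnt signal to the nucleus, where it acts with DNA-binding TCF/LEF proteins.

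Because beta-catenin acts through TCF/LEF proteins, the promoters of the 5 genes were read for their binding word. RefSeq promoter windows of the GRCm38.p6 build, running from 250 bases before to 50 bases after the start site, were matched for 4 of the 5 genes, all but Ccl11. The words searched on both strands were CTTTGAT, then CTTTGTT, then CTTTGAA and then CTTTGTA, and 16.9% of 32851 promoters of this length held at least 1 of them. Of the 4 windows, that of Cxcl12 held 1, CTTTGAT on the strand opposite to the gene, and those of Ackr4, Ackr3 and Cxcr4 held 0. Read along the gene strand, the match begins at position -163 counted from the start site. The windows of Cxcl12 and Ackr4 are shown because both genes were higher in SD stroma in the mean of the stages; they lie at chr6:117168285-117168584 on the plus strand and chr9:104126594-104126893 on the minus strand. Each is written 5′ to 3′ along its gene, and the capitals mark the word, which reads ATCAAAG in this direction.
Cxcl12: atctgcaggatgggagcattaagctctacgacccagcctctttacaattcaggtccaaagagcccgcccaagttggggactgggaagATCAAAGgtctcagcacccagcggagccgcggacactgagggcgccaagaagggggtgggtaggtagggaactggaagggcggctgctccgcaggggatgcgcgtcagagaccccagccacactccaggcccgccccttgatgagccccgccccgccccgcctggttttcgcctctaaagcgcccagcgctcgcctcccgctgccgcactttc
Ackr4: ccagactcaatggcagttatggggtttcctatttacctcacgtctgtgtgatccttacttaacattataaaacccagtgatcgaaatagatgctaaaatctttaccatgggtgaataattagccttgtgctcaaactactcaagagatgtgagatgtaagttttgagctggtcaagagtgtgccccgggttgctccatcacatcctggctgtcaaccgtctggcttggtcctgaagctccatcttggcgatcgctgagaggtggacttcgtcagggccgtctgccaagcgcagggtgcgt
A match describes these letters only and does not show binding. The Cxcl12 window is 64.7% G and C, against 48.7% in the Ackr4 window.

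Levels are given as log2 CPM, reads of a gene per mega-read of its library after adding 0.5 to each count. Differences are thus on the log2 scale, and for genes with few reads they can depart from the ratio of summed reads. For Ccl11 in SD at E12.5 the fitted change was 7.21-fold and the ratio of summed reads 6.40. Library totals were 6.18 to 21.2 M reads (M, mega). Ctnnb1, the gene of beta-catenin, was read strongly in every library, at 10.36 to 10.66 log2 CPM in SD at E12.5 and 10.34 to 10.38 at E13.5, against 10.69 to 10.86 and 10.51 to 10.54 in wild-type C57BL/6. It was thus lower in SD, with a log2 change of -0.31 at E12.5 (limma adjusted p = 0.0133) and -0.16 at E13.5 (adjusted p = 0.205). A deletion of part of the gene need not lower its gene-level count. Axin2, a direct target of beta-catenin that served as a check of the labels, was lower in SD (log2 change -1.03 at E12.5 and -1.01 at E13.5) and higher in SO (3.47 and 3.73). All 8 stromal markers were read in every group, with a summed level of 7139 to 11593 CPM over the libraries. Single markers differed: Foxd1 was lower in SO (log2 change -0.77 at E12.5 and -1.26 at E13.5, limma adjusted p = 0.00149 and 1.77e-06). At a limma adjusted p under 0.05, 3 of the 8 were higher and 4 lower in SO at E13.5, where 15.4% of all genes passed. In SD 1 was higher and 1 lower at each stage, where 1.72% of all genes passed at E12.5 and 3.4% at E13.5. RNA of other cell types was present too. Summed over 14 macrophage genes, SD held 86.9 to 206 CPM at E12.5 and 20.5 to 52.0 at E13.5, against 118 to 743 and 203 to 331 in wild-type C57BL/6. Summed over 14 endothelial genes, SD held 54.7 to 108 CPM at E12.5 and 59.3 to 93.2 at E13.5, against 66.3 to 222 and 151 to 159 in wild-type. Summed over the 7 of 11 erythroid genes that were measured, SD held 9.16 to 61.4 CPM at E12.5 and 9.66 to 41.1 at E13.5, against 570.0 to 834 and 41.4 to 1179 in wild-type. Nephron progenitor markers ran the other way, with 187 to 259 CPM at E12.5 and 229 to 278 at E13.5 in SD, against 109 to 121 and 127 to 145 in wild-type. In the CD1 line, macrophage genes summed to 553 to 838 CPM at E12.5 and 482 to 1229 at E13.5 in SO, against 808 to 837 and 327 to 449 in wild-type. Erythroid genes there summed to 59.996 to 976 CPM at E12.5 and 74.5 to 577 at E13.5 in SO, against 3208 to 3320 and 40.5 to 4046 in wild-type. Replicate 1 of wild-type CD1 at E13.5 stood apart, with 997 CPM of endothelial and 305 CPM of ureteric bud genes, against 98.4 and 52.8, and 55.6 and 63.4, in the other libraries of its group.

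A gene was called when its adjusted p was under 0.05 in limma with Benjamini-Hochberg adjustment over all 13803 genes. In SD against wild-type, 1 of the 5 genes was called at E12.5, 2 at E13.5 and 3 in the mean of the stages, all higher, where 1.72%, 3.4% and 7.17% of all genes were called. In SO against wild-type, 0 of 5 were called at E12.5, at E13.5 and in the mean of the stages, where 8.16%, 15.4% and 18.5% of all genes were called. At an unadjusted p under 0.05 these counts in SO were 0, 1 and 1. With 5 genes, each count rests on the genes described below. The 5 were chosen with earlier results of these data known, so the shares over all genes are no fair background for these counts. The median log2 change of the 5 was 0.45 and 0.58 in SD at E12.5 and E13.5 and -0.26 and -0.03 in SO, beside medians over all genes between -0.01 and 0.01.

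**Figure D1:**
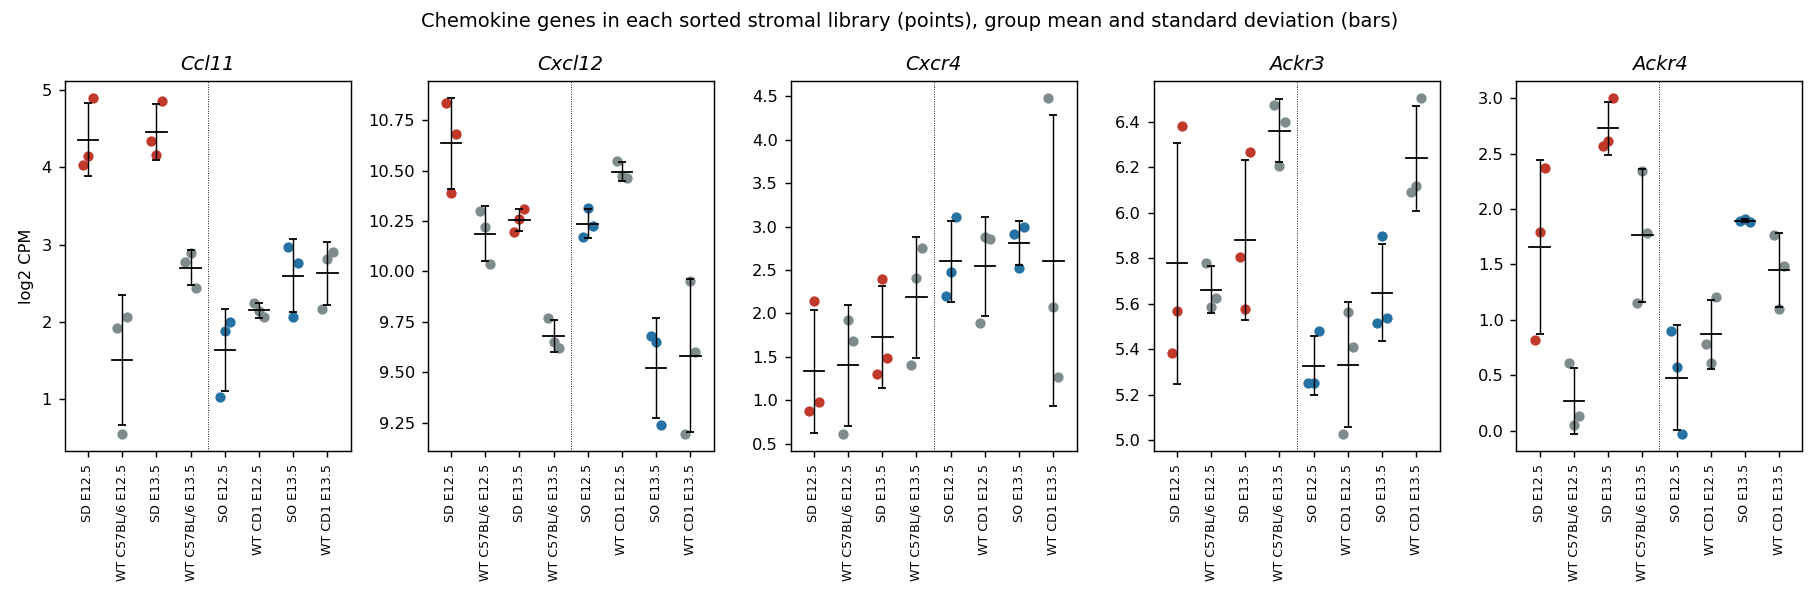
Level of each gene in log2 CPM (vertical axis, a scale of its own in each panel) in every library, 1 point each, with group means and standard deviations; SD libraries are red, SO blue and wild-type grey, and the dotted line parts the C57BL/6 line from the CD1 line. Ccl11 lies at or above 4.03 in all 6 SD libraries and at or below 2.96 in all others, and Cxcr4 in wild-type CD1 at E13.5 spreads from 1.27 to 4.48.

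The 5 genes covered a wide range of levels. Per kilobase of exon, which allows genes to be compared, the mean over the 24 libraries was 137 CPM for Cxcl12, 17.1 for Ackr3, 8.51 for Ccl11, 2.98 for Cxcr4 and 0.575 for Ackr4. Cxcl12 stood at the 99.6th percentile of mean log2 CPM among all genes and Ackr4 at the 16.3rd. Among the pair that compete for Cxcl12, the scavenger Ackr3 was thus the more abundant message, and its lowest library had 9.73 CPM per kilobase, which 1 library of Cxcr4 exceeded (12.4). Fewer cells of a type and less RNA per cell cannot be told apart in these bulk libraries.

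Ccl11, on chromosome 11 from 82057823 to 82062955 on the plus strand (GRCm38, GENCODE M21, as are the positions below), was the member with the largest difference. It rose 7.21-fold in SD stroma at E12.5 and 3.38-fold at E13.5, and no change was called in SO. In log2 CPM its level was 4.03, 4.14 and 4.90 in SD at E12.5, against 1.92, 0.54 and 2.07 in wild-type. At E13.5 it was 4.34, 4.16 and 4.86 in SD, against 2.77, 2.88 and 2.44 in wild-type. These levels rest on 145 to 254 reads in each SD library at E12.5, against 17 to 51 in wild-type, and on 124 to 211 at E13.5, against 46 to 67. All 3 SD libraries lay above all 3 wild-type libraries at each stage, and SD differed little between stages, while wild-type replicate 2 at E12.5 was the lowest of all 24 libraries.

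The log2 change of Ccl11 in SD was 2.85 ± 0.36 (SE, 95% interval 2.10 to 3.60, adjusted p = 0.000117) at E12.5 and 1.76 ± 0.36 (1.01 to 2.51, adjusted p = 0.00656) at E13.5. The E13.5 effect was smaller by 1.09 ± 0.51, which was not called (limma, adjusted p = 0.89, unadjusted p = 0.0441); there 0 of the 5 genes and 0% of all genes were called, and 2 of the 5 and 753 of all genes had an unadjusted p under 0.05. Both calls of Ccl11 held when each library of the comparison was left out in turn, with adjusted p up to 0.00194 and 0.0486. With the mean levels of the macrophage, endothelial and erythroid lists as covariates, the E12.5 change was 2.61 (limma adjusted p = 0.00245) and the E13.5 change was 1.96 with an adjusted p of 0.0848. At E12.5 the median log2 change of the 7 erythroid genes in SD was -4.14, with 7 of 7 below 0 and none called by limma. At E13.5, 12 of 14 macrophage and 6 of 14 endothelial genes were called lower in SD, where 3.4% of all genes were called. Of 9 nephron progenitor genes, 8 were above 0 in log2 change at each stage (median 0.77 at E12.5 and 0.30 at E13.5). At each stage 1 of the 9 was called higher, where 1.72% and 3.4% of all genes were called. The part of nephron progenitors in the result was not tested.

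In SO the Ccl11 values were 1.02, 1.88 and 2.00 log2 CPM at E12.5, against 2.25, 2.13 and 2.06 in wild-type CD1. They were 2.96, 2.06 and 2.76 at E13.5, against 2.16, 2.81 and 2.90 in wild-type. The E12.5 groups were just apart, with SO lower by 0.51 ± 0.36 (SE, 95% interval of the log2 change -1.27 to 0.24, limma adjusted p = 0.457), and the E13.5 groups overlapped (log2 change -0.03 ± 0.36, interval -0.78 to 0.72, adjusted p = 0.974). Ordered by mean level, the SD groups stood first (4.46 ± 0.36 log2 CPM at E13.5 and 4.36 ± 0.47 at E12.5, standard deviation, n = 3 each), did not part from each other, and were separate from the next group, wild-type C57BL/6 at E13.5 (2.70 ± 0.23). The remaining 5 groups ran from 2.63 to 1.51, and of these neighbours only wild-type CD1 at E12.5 and SO at E12.5 did not overlap.

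Cxcl12, on chromosome 6 from 117168535 to 117181367 on the plus strand, is the main ligand of the set. It was higher in SD stroma by 1.49-fold at E13.5, where the change was called, and by 1.36-fold at E12.5, where it was not. Its level in log2 CPM was 10.84, 10.39 and 10.68 in SD at E12.5, against 10.30, 10.22 and 10.04 in wild-type. At E13.5 it was 10.20, 10.26 and 10.31 in SD, against 9.77, 9.65 and 9.62 in wild-type. The groups did not overlap at either stage, with the narrower gap at E12.5.

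The fitted log2 change of Cxcl12 was 0.45 ± 0.14 (SE, 95% interval 0.16 to 0.74, limma adjusted p = 0.104) at E12.5 and 0.58 ± 0.14 (0.29 to 0.86, adjusted p = 0.0201) at E13.5. In the mean of the stages it was 0.51 ± 0.10 (adjusted p = 0.00162) and higher in 6 of 6 SD libraries than in every wild-type library of the same stage. The E13.5 call was lost without any of SD replicates 1, 2 and 3 and wild-type replicates 2 and 3 (limma adjusted p 0.0533 to 0.0903, log2 change 0.55 to 0.60), while the call in the mean of the stages held in all 12 such fits. With the macrophage, endothelial and erythroid lists as covariates the mean change was 0.45 with an adjusted p of 0.107.

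In SO, Cxcl12 was 10.17, 10.31 and 10.23 log2 CPM at E12.5, against 10.55, 10.48 and 10.46 in wild-type CD1. At E13.5 the values were 9.68, 9.65 and 9.24 in SO, against 9.19, 9.95 and 9.60 in wild-type. The SO libraries lay below wild-type at E12.5 and overlapped them at E13.5. The log2 changes were -0.26 ± 0.14 (SE, 95% interval -0.55 to 0.03, limma adjusted p = 0.30) and -0.06 ± 0.14 (-0.35 to 0.23, adjusted p = 0.833). Without replicate 1 of wild-type CD1 at E13.5, the library that stood apart, the mean change over the stages was -0.26 and called (limma adjusted p = 0.0351), against -0.16 with all libraries (adjusted p = 0.301). By mean level Cxcl12 ran from 10.63 ± 0.23 log2 CPM in SD at E12.5 to 9.52 ± 0.25 in SO at E13.5 (standard deviation, n = 3 each). SD and wild-type CD1 at E12.5 stood first and overlapped. They were separate from SD at E13.5 (10.25 ± 0.06), which overlapped SO at E12.5 and was followed by wild-type C57BL/6 at E12.5. A second gap parted these groups from the other E13.5 groups, where neighbours overlapped.

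**Figure D2:**
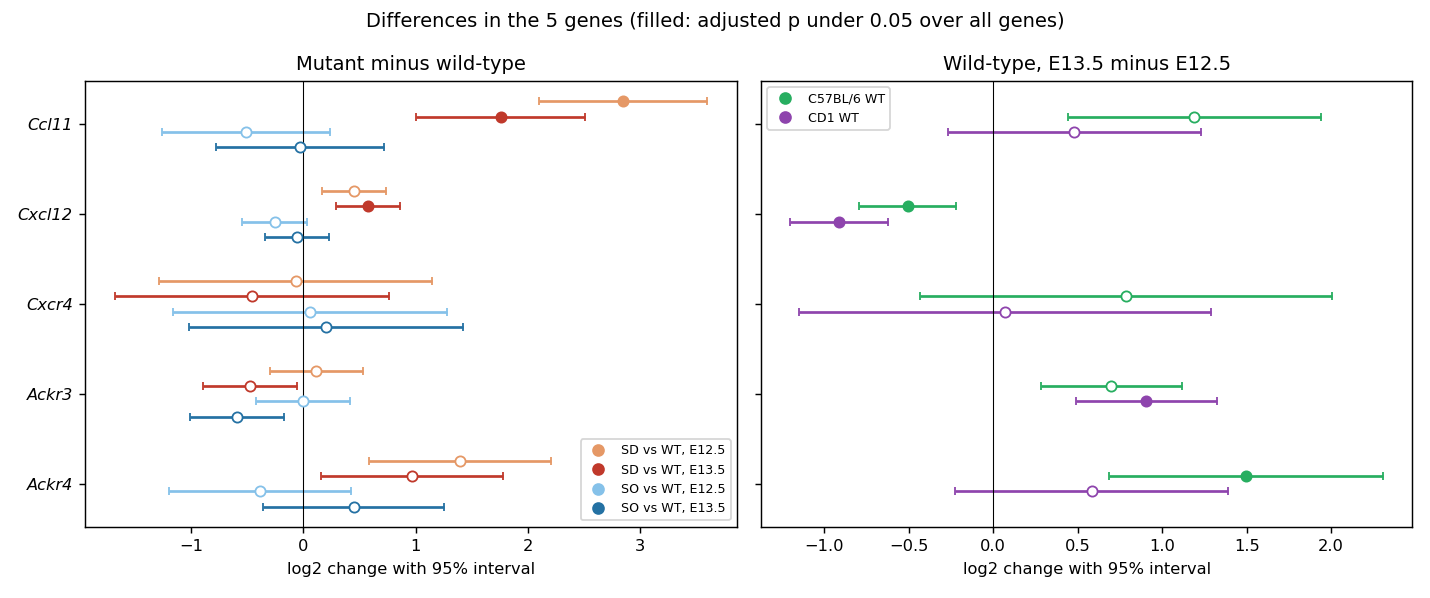
Log2 change of each gene with its 95% interval (horizontal axis) in the 4 mutant comparisons (left) and between stages in wild-type stroma (right); filled points were called at an adjusted p under 0.05 over all genes. Ccl11 is filled in SD at both stages, Cxcl12 in SD at E13.5 and in both wild-type strains, and Cxcr4 nowhere.

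Cxcr4, on chromosome 1 from 128588199 to 128592293 on the minus strand, is the receptor through which Cxcl12 signals. No comparison called it, and its spread within groups was the widest of the 5 genes, with a pooled standard deviation of 0.81 log2 CPM against 0.19 for Cxcl12. Its levels were 0.87, 2.15 and 0.98 log2 CPM in SD at E12.5, against 0.61, 1.92 and 1.68 in wild-type. They were 1.30, 2.39 and 1.49 in SD at E13.5, against 1.41, 2.41 and 2.75 in wild-type. SD and wild-type overlapped at both stages, and the intervals of the log2 change, -1.29 to 1.15 and -1.68 to 0.76, left room for changes past 2-fold in either direction at E12.5 and in the lower direction at E13.5.

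In SO, Cxcr4 was 2.21, 2.47 and 3.11 log2 CPM at E12.5, against 1.89, 2.88 and 2.86 in wild-type CD1. At E13.5 it was 2.92, 2.52 and 3.00 in SO, against 4.48, 2.08 and 1.27 in wild-type. The wild-type group at E13.5 thus held both the highest and a low library, and replicate 1, the highest, had 372 reads of Cxcr4 against 28 and 18 in replicates 2 and 3. That library also had the highest summed level of its group in 5 marker lists. In CPM these were 997 against 98.4 and 52.8 for endothelial genes and 305 against 55.6 and 63.4 for ureteric bud genes. For nephron progenitor genes they were 402 against 133 and 122, for erythroid genes 4046 against 1402 and 40.5, and for macrophage genes 449 against 327 and 363. The same library had the lowest summed level of stromal markers of all libraries, 7139 CPM, against 10209 and 8834 in the others of its group. Which cells held its Cxcr4 was not tested. The log2 change in SO at E13.5 was 0.20 ± 0.59 (SE, adjusted p = 0.869, limma), with a range of -0.47 to 1.14 when single libraries were left out. In order of mean level the CD1 line stood above the C57BL/6 line, from 2.81 ± 0.26 log2 CPM in SO at E13.5 to 1.33 ± 0.71 in SD at E12.5 (standard deviation, n = 3 each), but no neighbouring groups were separate.

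**Figure D3:**
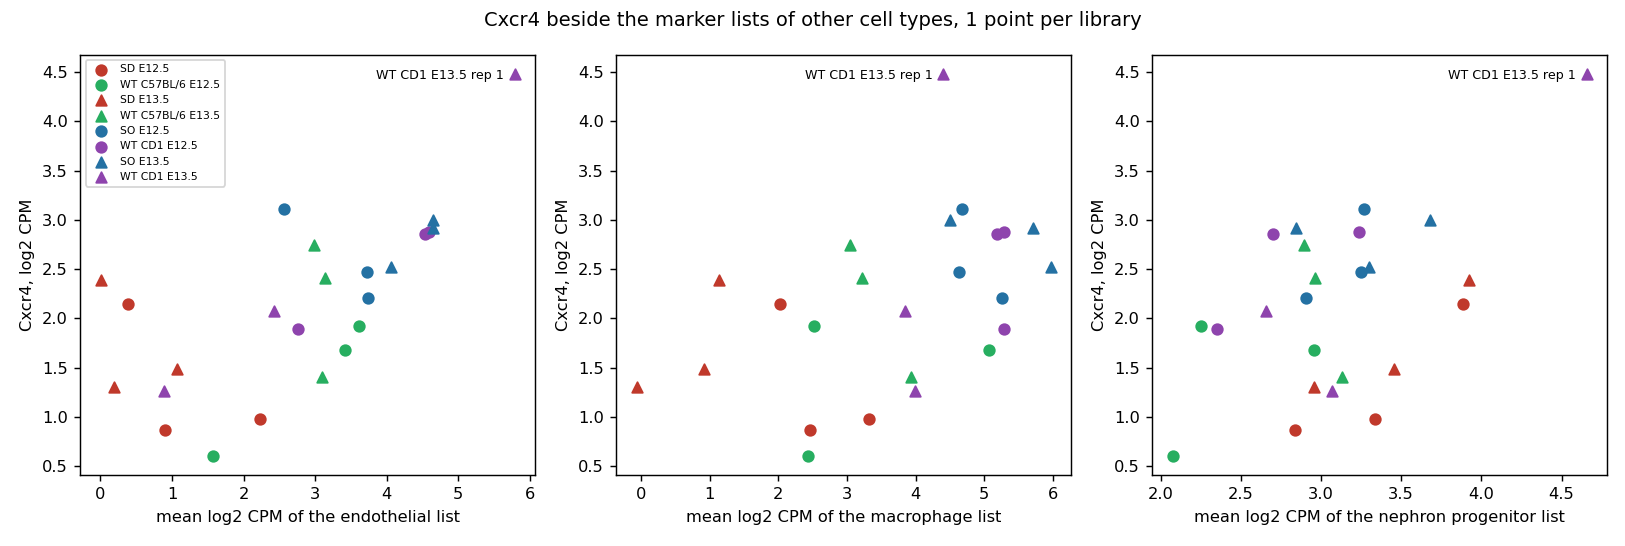
Cxcr4 in log2 CPM (vertical axis) against the mean log2 CPM of the endothelial, macrophage and nephron progenitor marker lists (horizontal axes), 1 point per library; circles are E12.5 and triangles E13.5. Replicate 1 of wild-type CD1 at E13.5 is highest in Cxcr4 (4.48) and in the endothelial (5.79) and nephron progenitor (4.66) lists, and not in the macrophage list (4.40).

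Ackr3, on chromosome 1 from 90203980 to 90216751 on the plus strand, is the scavenger of Cxcl12. No mutant comparison called it, although at E13.5 both mutants had a lower mean than their wild-type. Its levels in SD were 5.38, 5.57 and 6.38 log2 CPM at E12.5, against 5.78, 5.58 and 5.63 in wild-type. At E13.5 they were 5.80, 5.58 and 6.27 in SD, against 6.48, 6.21 and 6.40 in wild-type. The SD groups were wide and overlapped wild-type at both stages, since replicate 3 of SD was the highest of its group each time.

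In SO, Ackr3 was 5.25, 5.25 and 5.48 log2 CPM at E12.5, against 5.03, 5.56 and 5.41 in wild-type CD1. At E13.5 it was 5.51, 5.90 and 5.54 in SO, against 6.09, 6.12 and 6.51 in wild-type. The groups overlapped at E12.5, while at E13.5 all 3 SO libraries lay below all 3 wild-type libraries. The log2 change at E13.5 was -0.59 ± 0.20 (SE, 95% interval -1.01 to -0.17), and its adjusted p in limma, 0.0504, was just above the threshold. Other settings and fits without single libraries gave adjusted p between 0.0184 and 0.216, and it was called in all 7 other settings that could change it and in fits without SO replicate 2 or wild-type replicate 1. By mean level Ackr3 ran from 6.36 ± 0.14 log2 CPM in wild-type C57BL/6 at E13.5 to 5.33 ± 0.13 in SO at E12.5 (standard deviation, n = 3 each), with no neighbouring groups separate. In SD at E13.5 the log2 change was -0.48 ± 0.20 (interval -0.90 to -0.06, limma adjusted p = 0.252). The change of the SO effect between stages, -0.59 ± 0.29 (SE, limma adjusted p = 0.333), was not called, and there 0 of the 5 genes were called, also 0 at an unadjusted p under 0.05, against 1.33% of all genes.

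Ackr4, on chromosome 9 from 104084157 to 104126933 on the minus strand, is the scavenger of Ccl19, Ccl21 and Ccl25 and had the lowest level of the 5. It was higher in SD stroma in the mean of the stages, by 2.27-fold, and was not called within a stage. Its levels were 0.82, 1.79 and 2.37 log2 CPM in SD at E12.5, against 0.61, 0.05 and 0.13 in wild-type. They were 2.57, 2.61 and 3.00 in SD at E13.5, against 1.15, 2.35 and 1.79 in wild-type. At each stage the SD libraries lay above the wild-type libraries, by a narrow gap.

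These levels rest on few reads, 90 and 144 summed over the 3 SD libraries at E12.5 and E13.5, against 40 and 90 in wild-type. The log2 change was 1.40 ± 0.39 (SE, 95% interval 0.59 to 2.21, limma adjusted p = 0.0685) at E12.5 and 0.97 ± 0.39 (0.16 to 1.78, adjusted p = 0.221) at E13.5. Without SD replicate 1 the E12.5 change was 1.82 and called (limma adjusted p = 0.0114). In the mean of the stages the change was 1.18 ± 0.28 (SE, adjusted p = 0.00878), which held without each of the 12 libraries (adjusted p up to 0.0353) and not with the macrophage, endothelial and erythroid lists as covariates (log2 change 1.37, adjusted p = 0.12). Of the exon bases of Ackr4, 479 (8.9%) overlap exons of Acad11 on the opposite strand, and no source used here gives the strand of counting, so reads of the overlap cannot be assigned. The log2 change of Acad11 was -0.24 and 0.02 in SD (limma adjusted p = 0.608 and 0.975).

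In SO, Ackr4 was 0.90, 0.57 and -0.03 log2 CPM at E12.5, against 0.78, 0.61 and 1.21 in wild-type CD1. At E13.5 it was 1.89, 1.91 and 1.88 in SO, against 1.76, 1.10 and 1.48 in wild-type. The E12.5 groups overlapped, and the 3 closely spaced SO libraries at E13.5 lay just above wild-type. Neither change was called (log2 -0.39 ± 0.39 and 0.45 ± 0.39, SE, limma adjusted p = 0.642 and 0.499), and Acad11 fell by 0.82 at E13.5 (limma adjusted p = 0.00203). By mean level SD at E13.5 stood first (2.73 ± 0.24 log2 CPM, standard deviation, n = 3) and was separate from the next group, SO at E13.5 (1.90 ± 0.01), and the other neighbours overlapped.

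The SD effect minus the SO effect, in the mean of the stages, was called for 3 of the 5 genes, where 17.9% of all genes were called. The log2 difference was 2.58 ± 0.36 (SE, limma adjusted p = 1.58e-05) for Ccl11, 0.67 ± 0.14 (adjusted p = 0.00129) for Cxcl12 and 1.15 ± 0.39 (adjusted p = 0.0432) for Ackr4. With the macrophage, endothelial and erythroid lists as covariates 1 of the 5 was called, Ccl11, and the difference was 0.48 for Cxcl12 (limma adjusted p = 0.125) and 1.42 for Ackr4 (adjusted p = 0.153). The Ackr4 call was also lost with the replicate number as a block (limma adjusted p = 0.0536) and with voom weights (0.103). For Ackr4 the call was lost in 18 of 24 fits without a single library (adjusted p up to 0.0912). It held without SD E12.5 replicate 1, wild-type C57BL/6 E12.5 replicate 1 or E13.5 replicate 2, SO E12.5 replicate 1, or replicate 2 of wild-type CD1 at either stage. The corresponding differences were -0.39 ± 0.59 for Cxcr4 (SE, 95% interval -1.61 to 0.83) and 0.12 ± 0.20 for Ackr3 (-0.30 to 0.53), neither called. Genotype and strain differ together in this comparison and cannot be told apart.

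Between the stages, Cxcl12 was lower at E13.5 in wild-type stroma of both strains. In wild-type C57BL/6, 2 of the 5 genes were called, where 3.96% of all genes were called, and in wild-type CD1 2 of 5, where 5.42% were called. Cxcl12 was 9.77, 9.65 and 9.62 log2 CPM at E13.5, against 10.30, 10.22 and 10.04 at E12.5, in C57BL/6, a log2 change of -0.51 ± 0.14 (SE, limma adjusted p = 0.0409). In CD1 it was 9.19, 9.95 and 9.60 at E13.5, against 10.55, 10.48 and 10.46 at E12.5, a log2 change of -0.91 ± 0.14 (SE, adjusted p = 0.000435). The stages did not overlap in either strain. The CD1 call held in all alternatives run (adjusted p up to 0.0118), and the C57BL/6 call was lost in 5 of 6 fits without a single library, all but the fit without E12.5 replicate 3 (adjusted p up to 0.157).

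Of the scavengers, Ackr3 was called higher at E13.5 in CD1 and Ackr4 in C57BL/6. Ackr3 was 6.09, 6.12 and 6.51 log2 CPM at E13.5 in CD1, against 5.03, 5.56 and 5.41 at E12.5, a log2 change of 0.91 ± 0.20 (SE, limma adjusted p = 0.0105). In C57BL/6 it was 6.48, 6.21 and 6.40 at E13.5, against 5.78, 5.58 and 5.63 at E12.5, a log2 change of 0.70 ± 0.20 (SE, adjusted p = 0.0521) that was not called. The stages were separate in both strains, and the CD1 call was lost without either E12.5 replicate 1 or E13.5 replicate 3 (0.0659 and 0.0688 in limma, adjusted p). Ackr4 was 1.15, 2.35 and 1.79 at E13.5 in C57BL/6, against 0.61, 0.05 and 0.13 at E12.5, a log2 change of 1.497 ± 0.39 (SE, limma adjusted p = 0.0335). That call was lost in 5 of 6 fits without a single library, all but that without E13.5 replicate 1 (highest adjusted p 0.159), and in CD1 the change was 0.58 ± 0.39 (limma adjusted p = 0.425). For Ccl11 the log2 change was 1.19 ± 0.36 in C57BL/6 (limma adjusted p = 0.0647, and 0.0333 without E12.5 replicate 3) and 0.48 ± 0.36 in CD1 (adjusted p = 0.489).

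Other cell types also differed between the wild-type stages in CD1, where macrophage genes summed to 327 to 449 CPM at E13.5, against 808 to 837 at E12.5. In C57BL/6 the ranges overlapped, 203 to 331 against 118 to 743. Erythroid genes were below 0 in log2 change for 7 of 7 in both strains, with medians of -1.98 in C57BL/6 and -3.04 in CD1, and none was called by limma. With the macrophage, endothelial and erythroid lists as covariates, neither call in C57BL/6 held, and the log2 change was -0.40 for Cxcl12 (limma adjusted p = 0.226) and 1.44 for Ackr4 (adjusted p = 0.164). In C57BL/6 the Cxcl12 call was also lost with libraries set to a common median (limma adjusted p = 0.0509), and the Ackr4 call with voom weights (0.0611) and with the 12 libraries of the line (0.0705). With those lists as covariates the stage change of Cxcl12 in CD1 was still called, and that of Ackr3 was not (log2 0.80, adjusted p = 0.122). For Cxcr4 it was 0.79 ± 0.59 in C57BL/6 (SE, limma adjusted p = 0.494) and 0.07 ± 0.59 in CD1 (adjusted p = 0.966), a value that became -0.87 (adjusted p = 0.328) without replicate 1 of CD1 at E13.5. Between the wild-type strains, in the mean of the stages, 0 of the 5 genes were called by limma, also 0 at an unadjusted p under 0.05, where 4.46% of all genes were called. The largest of these strain differences was that of Cxcr4, -0.78 ± 0.42 for C57BL/6 minus CD1 (SE, 95% interval -1.64 to 0.08, limma adjusted p = 0.309).

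The rest of the chemokine family was mostly at low levels. Of 36 other ligands, 16 were among the genes of the deposited table, and of 16 other signalling receptors 3 (Ccr1, Ccr2 and Cx3cr1). Ccr3, the receptor of Ccl11, and Ccl19 and Ccl21a, ligands of Ackr4, were looked for and were not among those genes. Over the 24 libraries the highest mean among these ligands was that of Cxcl13 (4.70 log2 CPM), a chemokine that attracts B cells, and among the receptors that of Cx3cr1 (5.03), a receptor of macrophages. Ccl25, the ligand of Ackr4 that was measured, averaged 0.73 log2 CPM and was called in none of the 4 mutant comparisons within a stage.

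In SD against wild-type, 0 of the 16 ligands and 0 of the 3 receptors were called in limma at E12.5. At E13.5, 0 ligands rose and 4 fell, and 0 receptors rose and 2 fell, where 3.4% of all genes were called, while Ccl11 and Cxcl12 rose. The list medians at E13.5 were -0.72 for ligands and -3.40 for receptors, beside 0.00 over all genes. Pf4, a chemokine of platelets and macrophages, changed by -4.03 ± 0.76 (SE, limma adjusted p = 0.00305), and Cx3cr1 by -3.04 ± 0.50 (adjusted p = 0.000983). Summed reads of Pf4 were 10 in SD against 146 in wild-type, a ratio 12.9-fold lower (95% counting interval 6.80 to 27.4). Ccl24, another eotaxin, had 1 read in SD against 54 in wild-type, a ratio 47.6-fold lower with a 95% counting interval of 8.19 to 1915. Ccr1, a receptor of myeloid cells, had 3 reads in SD against 65, 19.1-fold lower (6.25 to 95.03). Ccl9 and Ccl12 were also called (log2 change -2.70 and -3.96). The macrophage list, which holds Cx3cr1 itself, fell with them, 12 of 14 genes, with a summed level in SD of 20.5 to 52.0 CPM against 203 to 331 in wild-type, with no macrophage gene at 0 reads over the SD libraries. With voom weights, or with the marker lists as covariates, Pf4, Ccl24, Ccr1 and Cx3cr1 were not called (adjusted p up to 0.729).

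In SO, 1 ligand rose at E12.5 and 2 at E13.5, 0 fell, and 0 of 3 receptors were called in limma, where 8.16% and 15.4% of all genes were called. Cxcl15, the chemokine lungkine, had 19 reads in SO against 2 in wild-type CD1 at E12.5, a 14.6-fold higher ratio (95% counting interval 3.52 to 129). At E13.5 it had 86 reads against 2, 29.0-fold higher (7.80 to 244). Wild-type C57BL/6 had 19 Cxcl15 reads at E12.5 and 9 at E13.5. It was higher than wild-type CD1 in the mean of the stages (log2 difference 2.33, limma adjusted p = 0.0247). With the macrophage, endothelial and erythroid lists as covariates, the Cxcl15 call in SO was lost at E12.5 (limma adjusted p = 0.119) and held at E13.5. Cxcl16, a membrane-bound chemokine, rose by 1.91 ± 0.54 at E13.5 (SE, limma adjusted p = 0.0164). The Cxcl16 call was lost without SO replicate 1 or 2 or wild-type replicate 1 (limma adjusted p up to 0.11). It was also lost with the same lists as covariates (limma adjusted p = 0.233). The median over the 16 ligands was -0.03 at E12.5 and 0.73 at E13.5, with 15 of 16 above 0 at E13.5, where 14 of 14 macrophage genes (median 1.32, 2 called higher) and 14 of 14 endothelial genes (median 1.62, none called by limma) were also above 0.

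**Figure D4:**
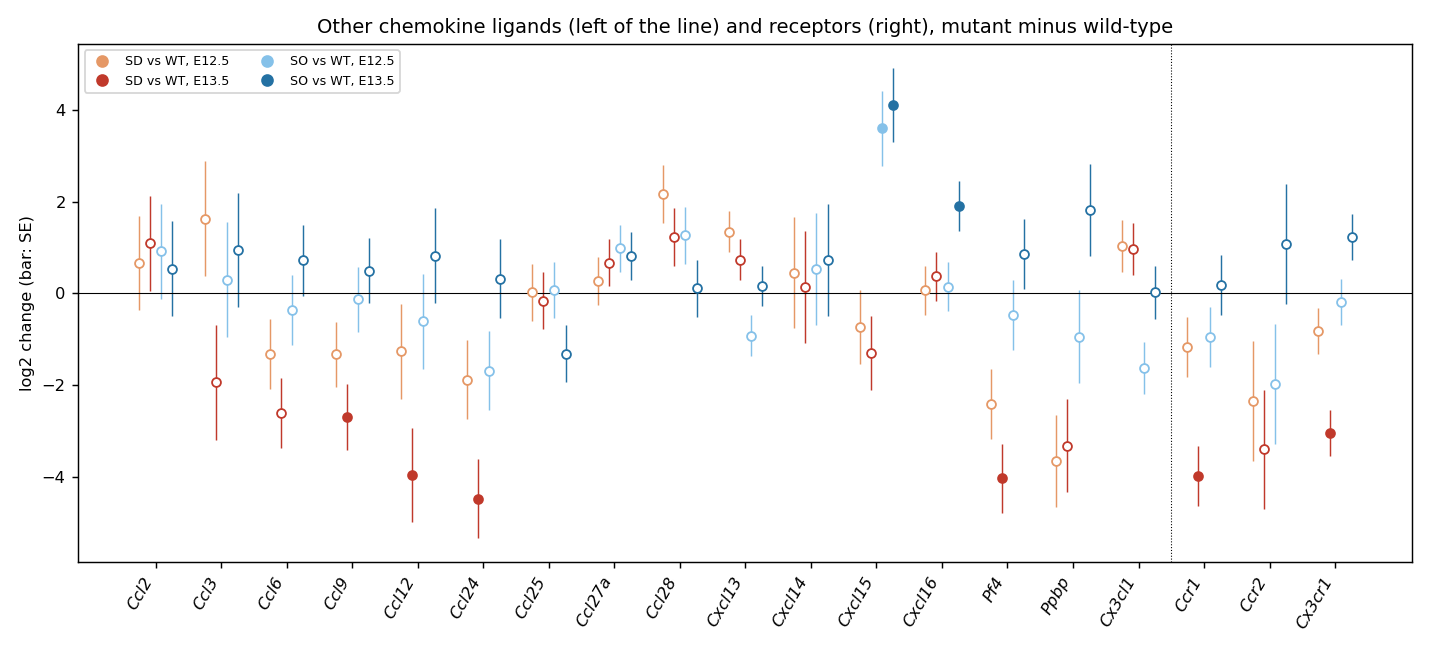
Log2 change (vertical axis, bars are SE) of the 16 other ligands and, right of the dotted line, the 3 other receptors in SD and SO against wild-type at both stages; filled points were called at an adjusted p under 0.05 over all genes. In SD at E13.5, 6 filled points lie between -2.70 and -4.48, and in SO Cxcl15 is filled at both stages.

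Genes that act with the 5 members were described as lists. Of 14 genes of receptor transduction and desensitisation, 1 fell in SD at E12.5, Grk5, a kinase that phosphorylates active receptors (log2 change -0.66 ± 0.14, SE, limma adjusted p = 0.0119, lost without SD replicate 3 or wild-type replicate 1). At E13.5, 1 of the 14 rose, the arrestin Arrb1, and 2 fell, Pik3cg and Dock2, which act in leukocyte migration. Pik3cg had 14 reads in SD against 95 in wild-type. Its call was lost with voom weights and with the macrophage, endothelial and erythroid lists as covariates (limma adjusted p up to 0.917). In SD 1.72% and 3.4% of all genes were called at the 2 stages. In SO, 1 of the 14 rose at E12.5 and 3 at E13.5, and 0 fell, where 8.16% and 15.4% of all genes were called. Gnai1, an inhibitory G protein subunit that carries the signal of Cxcr4, rose at both stages (0.58 ± 0.17 and 0.97 ± 0.17, limma adjusted p = 0.0347 and 0.000264). The E12.5 call was lost in 5 of 6 fits without a single library (limma adjusted p up to 0.183). It was also lost with voom weights and with the macrophage, endothelial and erythroid lists as covariates (limma adjusted p up to 0.555). With those covariates the E13.5 call was lost as well (limma adjusted p = 0.066).

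Sdc2, Sdc1 and Ramp3, from a list of 13 partners of Cxcl12 and Ackr3, rose in SO stroma at both stages. Of the 13, 0 were called in SD at either stage by limma, where 1.72% and 3.4% of all genes were called. In SO 3 rose and 0 fell at E12.5, and 3 rose and 1 fell at E13.5, where 8.16% and 15.4% of all genes were called. Sdc2, a heparan sulfate proteoglycan of the surface, a class that holds Cxcl12, rose by 1.87 ± 0.12 and 2.30 ± 0.12 at E12.5 and E13.5 (SE, limma adjusted p = 5.26e-10 and 4.28e-12). Sdc1, of the same class, rose by 0.47 ± 0.08 and 0.56 ± 0.08 (adjusted p = 0.000303 and 1.5e-05). Ramp3, which together with Calcrl forms a receptor of adrenomedullin, rose by 1.61 ± 0.24 and 1.60 ± 0.24 (adjusted p = 0.000119 and 4.66e-05). For these 3 genes the SD effect minus the SO effect was called as well (log2 -2.20, -0.59 and -1.91, limma adjusted p up to 5.62e-06). Adm, adrenomedullin itself, another ligand of Ackr3, fell by 3.10 ± 0.94 at E13.5 (limma adjusted p = 0.0267). The Adm call was lost without SO replicate 1 or wild-type replicates 2 or 3 (limma adjusted p up to 0.208). It was also lost with the 12 libraries of the line (limma adjusted p = 0.0867). Of 9 genes of interleukin 4 and 13 signalling, a known inducer of Ccl11, 0 were called by limma in SD or SO at either stage.

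Across the 24 libraries, which share groups, line and sorting, Ccl11 and Ackr4 varied most alike among the 5 genes (Pearson r = 0.74). Cxcl12 and Cxcr4 had the most negative value (r = -0.52), and both values are descriptions. Replicate 1 of wild-type CD1 at E13.5 had both the highest Cxcr4 (4.48 log2 CPM) and the lowest Cxcl12 (9.19) of the 24 libraries. It also had the lowest summed level of the stromal markers (7139 CPM). Among 12684 genes compared, the most alike to Ccl11 were Cpe (r = 0.869), Igfbp3 (0.843) and Ctf1 (0.832). For Cxcl12 they were Scube1 (0.938), Tgfb2 (0.887) and Crabp1 (0.877). Ackr3 ran closest to Tmtc1 (0.873), Adamts5 (0.870) and Cnbp (0.867), and Ackr4 to Kcnj8 (0.858), Eya2 (0.857) and Mical2 (0.836). For Cxcr4 the closest were Frem2 (0.834), Dysf (0.825) and Ppp1r16b (0.805), in a set of libraries where replicate 1 of wild-type CD1 at E13.5 carries the highest Cxcr4.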

How the data were processed

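Stromal RNA was sequenced in 24 libraries. The deposited values are log2 CPM, which the authors scaled by TMM with 0.5 added to each count; HISAT2, HTSeq, limma and the mm10 genome are named in the submitters' processing notes. Whole reads recovered from the values (100% within 0.1 of a whole number) gave the depths, and intervals on reads cover counting error only. All columns were mapped by label, and 0 were left unmapped.

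The log2 values were fitted with limma 3.58.1 in R 4.3.3 (8 group means, empirical Bayes with trend, 16 residual and 6.43 prior degrees of freedom), for 12 comparisons, 2-sided. A gene was tested when at least 3 libraries exceeded a log2 CPM of 0, which all 13803 genes and all 5 members passed. Simulated data with 200 changed genes were used to test it. Genes of other lists were named by rule, at most 4 of each list, by the smallest p of their calls; Ccl9, Ccl12, Arrb1, Dock2, Cxcl13, Ccl25 and Acad11 were named after their values were seen. Likeness is Pearson's r of log2 CPM. Transcripts were searched with BLAST 2.17.0 for other genes at 95% identity over 200 nucleotides, and Ackr4 matched Acad11. The members and lists were chosen with earlier results of these data known. A gene of the receptor list is not reported here. A count-based quasi-likelihood test was planned and not run, because the deposited values are logarithms. Replicate numbers were not treated as pairs.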

Additional observations from a re-analysis of the deposited data

Results flagged for a closer look

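For 3 genes the difference between the SD and SO effects in the mean of the stages was called in limma. The log2 difference, SD effect minus SO effect, was 2.58 for Ccl11, 0.67 for Cxcl12 and 1.15 for Ackr4. For Ccl11 it was made up of 2.30 ± 0.26 in SD and -0.27 ± 0.26 in SO, for Cxcl12 of 0.51 ± 0.10 and -0.16 ± 0.10, and for Ackr4 of 1.18 ± 0.28 and 0.03 ± 0.28 (SE, limma). The Ackr4 call was lost in 18 of 24 fits without a single library, with the replicate block, with voom weights and with the macrophage, endothelial and erythroid lists as covariates (limma adjusted p up to 0.153), and the Cxcl12 call with those covariates (adjusted p = 0.125). The strain differs with the genotype in this comparison, and they cannot be told apart.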

How the results depend on the processing

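Of the alternatives to the 5 genes' results, 7 other settings gave 371 values on the same side of the threshold and in the same direction, 14 that lost and 12 that gained a call, and 13 with the opposite sign; leaving out single libraries gave 525, 35, 5 and 35. Dropping the filter on low values is not counted, because all 13803 genes passed it and nothing could change. No paired analysis is built on the replicate numbers, because same-numbered libraries deviated with r of -0.143 to 0.276 over 12 pairs and 5 of 12 correlated best with their own number. With the replicate block the members called rose to 4 in wild-type C57BL/6 between stages (2 without it) and to 1 in SO at E13.5 (0 without it), and Ackr4 lost its call in the SD effect minus the SO effect (adjusted p = 0.0536). Members called in SO at E13.5 were also 1 with voom weights, a pseudocount of 2 reads, a common median, a filter at log2 CPM above 2, the 12 libraries of the line and marker lists as covariates, each time Ackr3. With the 12 libraries of the line, 2 were called in SD at E12.5 (1 in the fit of all) and 1 in wild-type C57BL/6 between stages, as with a common median. With macrophage, endothelial and erythroid lists as covariates, 0 were called in SD at E13.5, 1 in the SD mean of stages, 1 in the SD minus SO effects, 0 in wild-type C57BL/6 and 1 in wild-type CD1 between stages. Without single libraries the counts ran from 1 to 2 in SD at E12.5, 1 to 2 in SD at E13.5, 0 to 1 in SO at E13.5, 0 to 1 in the SO mean, 0 to 2 in wild-type C57BL/6 and 1 to 2 in wild-type CD1 between stages. Opposite signs were seen only for values that were not called. With those lists as covariates, the log2 change of Cxcr4 was 0.66, 0.29 and 0.47 in SD at E12.5, E13.5 and their mean, -0.16 in SO at E13.5, -0.51 for the SO effect between stages and 0.38 for SD minus SO effects, that of Cxcl12 in SO at E13.5 was 0.12, and that of Ackr4 in the SO mean was -0.0447. With voom weights Cxcr4 was -0.44 in SO at E13.5, -0.19 in the SO mean and -0.50 for the SO effect between stages, Ccl11 in SO at E13.5 was 0.0133, and Ackr4 in the SO mean was -0.0261. Without single libraries, Cxcr4 ran from -0.48 to 0.19 in SD at E12.5, -0.27 to 0.25 in SO at E12.5, -0.47 to 1.14 in SO at E13.5, -0.21 to 0.60 in the SO mean, -0.78 to 0.0173 and -0.53 to 1.08 for the SD and SO effects between stages, and -0.87 to 0.74 in wild-type CD1 between stages. Ackr3 ran from -0.19 to 0.31 in SD and -0.16 to 0.11 in SO at E12.5, and -0.0352 to 0.21 for SD minus SO effects. In SO at E13.5 Ccl11 ran from -0.26 to 0.24 and Cxcl12 from -0.25 to 0.13. Ackr4 ran from -0.0757 to 0.16 in the SO mean and -0.29 to 0.00683 for C57BL/6 minus CD1. The cause of these changes was not tested. Counts of all genes called, as fitted and as the lowest and highest of all alternatives, were 237 (92 to 395) and 469 (193 to 484) in SD at E12.5 and E13.5, 1127 (566 to 1150) and 2120 (1322 to 2595) in SO, 990 (397 to 1064) and 2560 (1382 to 2593) in the SD and SO means, 0 (0 to 23) and 183 (61 to 533) for their change between stages, 2473 (1535 to 2638) for SD minus SO effects, 546 (75 to 693) and 748 (215 to 826) between stages in wild-type C57BL/6 and CD1, and 616 (39 to 1002) between strains. Low reads limit Ccl11, Cxcr4 and Ackr4, which had as few as 12, 13 and 6 reads in a library. The count-based test was not run.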
